A study of Mus musculus with 10 samples.

Results

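The comparison set iPGCs, primordial germ cells (PGCs) made in culture from mouse embryonic stem cells (ESCs), of one line and sort against iPGCs of another. It used 4 of the 10 arrays of the series. The 2 arrays of V6.5 iPGCs hold SSEA1+/cKit bright cells of the V6.5 ESC line, whose genetic background is given as 129xBL6 F1. The 2 arrays of Oct4-Gfp iPGCs hold Oct4-Gfp+/cKit bright cells of the Oct4-gfp ESC line, given as mixed, which carries a green reporter of the gene *Pou5f1* (Oct4). Both lines were grown on mouse embryonic fibroblasts, depleted of these feeders, left as embryoid bodies (EBs) without LIF until day 6, dissociated with trypsin and sorted by flow cytometry. RNA was amplified with a Nu-GEN kit before hybridisation to Affymetrix Mouse Genome arrays. The other arrays of the series, 2 per group, hold V6.5 ESCs at day 0 sorted for SSEA1 and cKit, day 6 V6.5 somatic cells negative for both, and day 6 Oct4-Gfp somatic cells negative for the reporter and cKit. The line, its background and the sort marker changed together, so their contributions cannot be told apart. Each side of the comparison is 1 ESC line, the DNA that drives the reporter is not given in the sources used here, and nothing states that the 2 arrays of a group came from separate differentiations, so p-values measure the spread between these samples, which may be technical.

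PGCs are the embryonic precursors of eggs and sperm. They arise from the epiblast under BMP signalling through *Prdm1* (Blimp1), *Prdm14* and *Tfap2c*, regain genes of naive pluripotency, silence the somatic programme, and later lose DNA methylation, which switches on germline genes whose promoters are methylated elsewhere. SSEA1 is a carbohydrate on the surface of ESCs and early PGCs, made by fucosyltransferases such as *Fut9*. cKit is the receptor through which Kit ligand keeps PGCs alive. An SSEA1 gate and a reporter gate therefore rest on a cell surface sugar in one line and on *Pou5f1* transcription in the other.

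Values are MAS5 signals on a linear scale, without unit, and differences are on the scale of log2(signal + 14.8), Oct4-Gfp minus V6.5. Both groups of iPGCs carried the RNAs that define the label. Of 11 markers, 10 were measured (*Nanos3* was not). Of these, 6 were higher on the V6.5 iPGC arrays than on the ESC arrays, and 8 were on the Oct4-Gfp iPGC arrays. Against the somatic arrays of the same line 9 and 10 were higher (adjusted p under 0.05, limma). None was lower in either comparison. *Kit* in both lines and *Pou5f1* in the Oct4-Gfp line follow the sort, and the somatic cells were sorted as negative for them. Their higher levels against somatic cells thus restate the sort. The paper picked *Id4* and showed *Itgb3* as higher in iPGCs from these same arrays, so those markers are not independent checks.

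The 4 arrays were not of like quality. The ratio of the 3' to the 5' control signal of *Gapdh*, which rises where RNA is degraded or amplified from its 3' end, was 1.51 and 1.63 on the V6.5 arrays and 2.02 and 2.37 on the Oct4-Gfp arrays. The means were 1.57 ± 0.0845 and 2.20 ± 0.246 (SD, n = 2 each), and the Oct4-Gfp mean was the highest of the 5 groups, although 1 Oct4-Gfp somatic array, at 2.05, lay between the 2 Oct4-Gfp iPGC arrays. The same ratio of *Actb* was 1.34 and 1.29 against 1.44 and 1.49. Neither ratio overlapped between the lines, but with 2 arrays against 2 the exact permutation test (two-sided) gave p = 0.333 for each, the smallest p this design allows. The ratio of the middle to the 5' signal was 1.30 and 1.41 against 1.48 and 1.70 for *Gapdh*, and overlapped for *Actb*, at 1.04 and 0.986 against 1.03 and 1.08. The median signal was 65.6 and 87.3 on the V6.5 arrays and 62.7 and 53.7 on the Oct4-Gfp arrays. A fit with the *Gapdh* ratio as a covariate left 1518 probe sets at an unadjusted p under 0.05, and with the *Actb* ratio 1919, against 5526 without either.

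**Figure D1:**
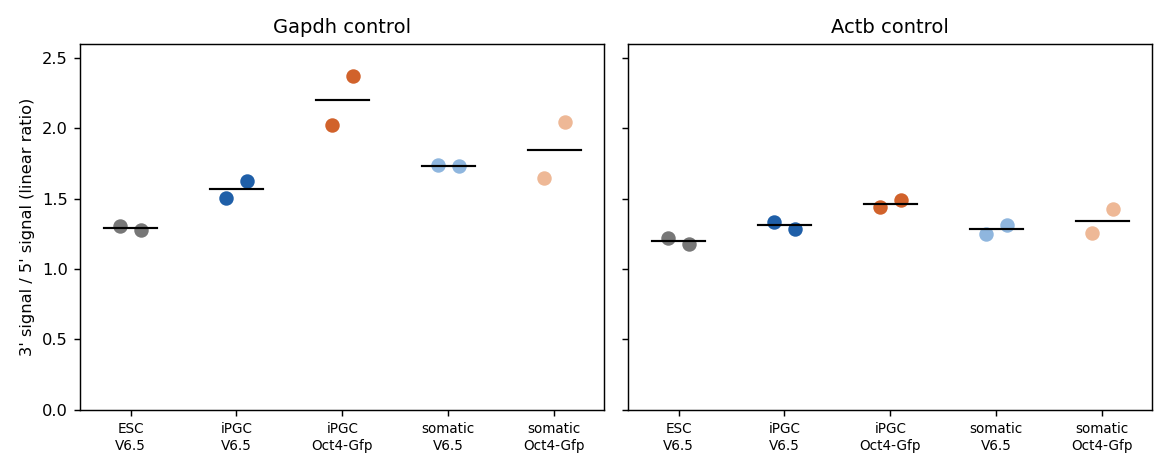
The 3'/5' ratio of the *Gapdh* and *Actb* control signals (linear, vertical axis) on each of the 10 arrays, by group, with bars at the group means. The Oct4-Gfp iPGC points lie at 2.02 and 2.37 for *Gapdh* and at 1.44 and 1.49 for *Actb*, above both V6.5 iPGC points in each panel.

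V6.5 replicate 2 stood apart from the other iPGC arrays. Across probe sets, the Pearson r was 0.971 between the V6.5 replicates and 0.985 between the Oct4-Gfp replicates, while V6.5 replicate 1 reached 0.978 and 0.980 with the Oct4-Gfp arrays and V6.5 replicate 2 only 0.971 and 0.963. The V6.5 replicates differed over 2-fold at 350 genes and the Oct4-Gfp replicates at 108. Results are therefore also given without V6.5 replicate 2. All iPGC arrays lay closer to each other than to the ESC arrays (r between 0.916 and 0.943) or the somatic arrays (r between 0.799 and 0.855).

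No gene passed the test between the lines. Of 26368 probe sets, 0 had an adjusted p under 0.05 in limma (0%), and of 12207 genes 0 did (0%). The smallest adjusted p was 0.0695, and 5526 probe sets (21.0%) had an unadjusted p under 0.05, of which 1467 were higher and 4059 lower in Oct4-Gfp iPGCs. By genes, 880 were higher (7.21%) and 1557 lower (12.8%) at an unadjusted p under 0.05. Both arrays of one line lay above both arrays of the other, called without overlap below, at 3149 higher genes (25.8%) and 3537 lower genes (29.0%). A fit in which the assumed spread follows the signal level (limma-trend) called 123 genes higher (1.01%) and 309 lower (2.53%). All 432 kept their sign without V6.5 replicate 2. This is not an independent check, because that array took part in the calls. A gene without overlap cannot change sign when 1 array is left out. The rule of at least 3-fold and unadjusted p under 0.01 held for 0 higher genes (0%) and 18 lower genes (0.147%).

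Most genes lay within a narrow band between the lines. The 95% interval of the difference was within 2-fold in either direction for 9556 genes (78.3%), the median absolute difference was 0.23 on the log2 scale, and the group means differed over 2-fold at 25 higher and 216 lower genes. The lean towards lower signals depended on the level and on the scaling. With the genes in 5 equal bins by mean signal, the median difference was -0.24 in the lowest bin and 0.08 in the highest, and 39.0% and 16.4% of these genes were lower without overlap. The median of all genes was -0.02, but 0.06 after quantile normalization and 0.14 after median centring. Among probe sets at an unadjusted p under 0.05, 26.5% were higher as deposited, 47.5% after quantile normalization and 62.4% after median centring. The genes and lists below are therefore read against the median of all genes. That median does not correct for the level, and no list was compared with genes of like signal. Counts without overlap stand against 25.8% of all genes higher and 29.0% lower. Counts at an unadjusted p under 0.05 stand against 7.21% and 12.8%.

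The genes behind the sort gates did not separate the lines past the test. *Pou5f1*, which the reporter follows, was at 3367 and 3831 in V6.5 iPGCs and at 2976 and 2419 in Oct4-Gfp iPGCs. The reporter-sorted cells were thus the lower pair, without overlap (log2 -0.42 ± 0.51 SE, adjusted p = 0.663, limma). *Kit* was at 1841 and 2072 against 1810 and 1381, also lower without overlap (-0.30 ± 0.28). The other *Kit* probe set was lower by more, at 659 and 735 against 396 and 313. There the difference was -0.95 ± 0.22 (unadjusted p = 0.00249, adjusted p = 0.0873, limma). *Fut9*, the main fucosyltransferase that completes SSEA1, was at 172 and 156 against 186 and 129, with overlap (-0.07 ± 0.20). *Fut4*, another such enzyme, overlapped at 60.1 and 55.5 against 70.8 and 56.9. Of the 8 measured genes of the gates and of SSEA1 synthesis, at the probe sets used, 0 had an unadjusted p under 0.05, 1 was higher and 4 lower without overlap. Their median was -0.17 and turned to 0.0085 after quantile normalization.

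Among the PGC regulators, *Dppa3*, *Tfap2c* and *Prdm1* overlapped between the sorts, and *Prdm14*, *Id4* and *Dnd1* did not. *Dppa3* (Stella), which protects methylation marks in the egg and early embryo, was at 6825 and 6987 against 6869 and 6927. *Tfap2c* was at 8804 and 8724 against 8196 and 8899. *Prdm1* was at 1137 and 814 against 1002 and 745. The 95% interval of the log2 difference ran from -0.72 to 0.72 for *Dppa3*, from -0.36 to 0.28 for *Tfap2c* and from -0.98 to 0.68 for *Prdm1*. *Prdm14* was at 911 and 941 against 1028 and 1141, *Itgb3*, an integrin subunit, at 560 and 412 against 542 and 393, and *Id4*, an inhibitor of DNA-binding factors, at 1950 and 2284 against 1428 and 1712. *Prdm14* was higher and *Id4* lower without overlap (adjusted p = 0.55 and 0.469, limma), and 1 of 3 *Id4* probe sets had the sign shown. *Dnd1*, an RNA-binding protein needed for germ cell survival, was at 702 and 787 against 386 and 508 (-0.73 ± 0.38, adjusted p = 0.316, limma).

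**Figure D2:**
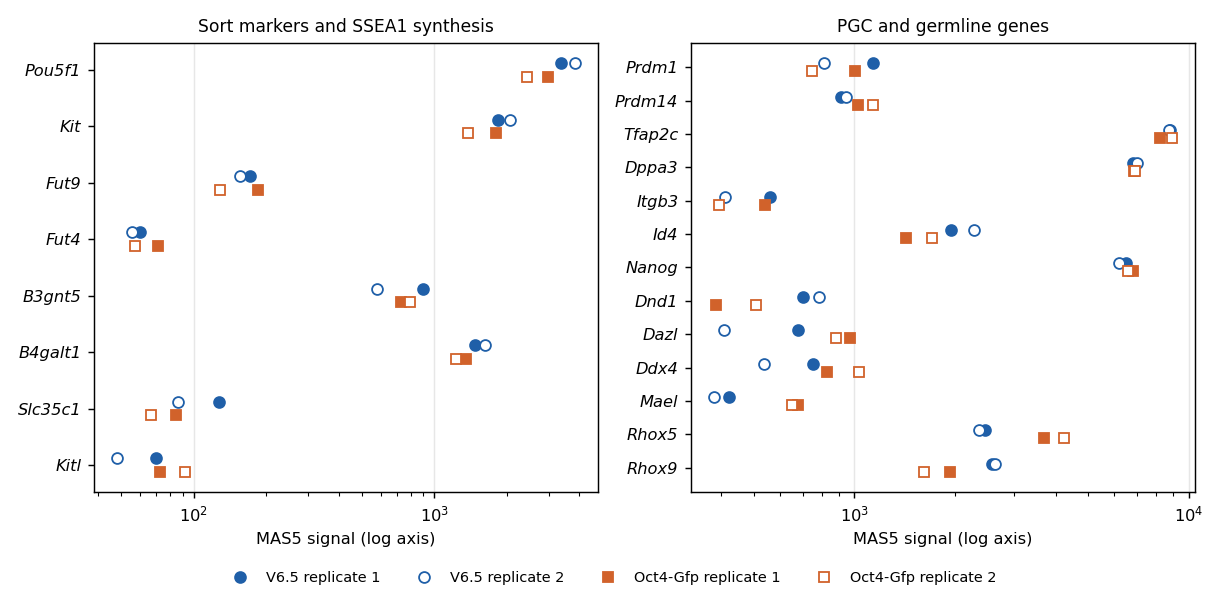
MAS5 signals (horizontal log axis) of genes of the sort gates and SSEA1 synthesis (left) and of PGC and germline genes (right) on the 4 iPGC arrays, V6.5 as circles and Oct4-Gfp as squares. *Dppa3*, *Tfap2c* and *Prdm1* overlap between the lines, whereas *Mael*, *Dazl* and *Rhox5* lie higher and *Rhox9* and *Dnd1* lower on both Oct4-Gfp arrays.

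The wider PGC list holds 3 measured X-linked reproductive homeobox genes of the *Rhox* cluster. *Rhox5* was at 2451 and 2357 in V6.5 iPGCs and at 3685 and 4246 in Oct4-Gfp iPGCs, a 1.64-fold higher level without overlap (0.71 ± 0.20, adjusted p = 0.113 in limma and 0.0415 in limma-trend). *Rhox9* was at 2573 and 2642 against 1931 and 1618, and *Rhox6* at 1719 and 1525 against 1247 and 1276, both lower without overlap (adjusted p = 0.219 and 0.623, limma). With the *Gapdh* ratio as a covariate *Rhox9* and *Rhox6* turned higher, to 0.24 and 0.855, and with the *Actb* ratio *Rhox6* was at 0.21. Of 20 measured members 1 was higher and 2 were lower at an unadjusted p under 0.05, and 3 were higher and 10 lower without overlap. The lower ones included *Ifitm3* (7136 and 7763 against 6083 and 4968) and *Ifitm1*, interferon-induced membrane proteins long used as PGC markers, and *Alpl*, the alkaline phosphatase of PGCs. The list median was -0.19, and -0.19 without V6.5 replicate 2.

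Some germline genes that follow specification were higher without overlap in Oct4-Gfp iPGCs. *Mael*, a piRNA pathway protein, was at 422 and 380 against 680 and 649. The Oct4-Gfp pair was higher, with little spread in either pair (1.64-fold, 0.71 ± 0.14, adjusted p = 0.071 in limma and 0.105 in limma-trend). *Dazl*, an RNA-binding protein of the germline, was at 677 and 408 against 973 and 881 (0.80 ± 0.23, adjusted p = 0.12, limma). It was higher without overlap at the probe set used, whereas the other probe set overlapped (0.64 ± 0.41). At the probe set used the difference fell to 0.44 without V6.5 replicate 2. *Hormad1*, a meiotic chromosome protein, was at 229 and 213 against 348 and 386. *Piwil2*, an Argonaute protein that binds piRNAs, was at 1010 and 707 against 1381 and 1253. *Ddx4* (Mvh), a germline RNA helicase, was at 752 and 538 against 829 and 1030. Of 21 measured members 7 were higher and 0 lower at an unadjusted p under 0.05, 11 were higher and 2 lower without overlap, and 0 passed in limma or limma-trend. The median of the list was 0.27, against -0.02 for all genes, and was 0.18 without V6.5 replicate 2. With the *Gapdh* ratio as a covariate the median was 0.19 with 1 member higher at an unadjusted p under 0.05, and with the *Actb* ratio it was 0.03 with 1 higher and 1 lower. The lower ones without overlap were *Rec8*, a meiotic cohesin subunit (1237 and 899 against 807 and 741), and *Dpep3*.

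Of 12 measured genes of DNA methylation and demethylation, 7 were higher and 2 lower without overlap. *Dnmt1*, the maintenance methyltransferase, was at 4063 and 3420 against 5719 and 5572. Its 3 probe sets were all higher, and the used one by 1.51-fold (0.60 ± 0.14, adjusted p = 0.0888 in limma and 0.0189 in limma-trend). *Uhrf1*, which brings Dnmt1 to replicated DNA, was at 4848 and 4616 against 5993 and 5981. *Tet2*, which oxidises methylcytosine, was at 1967 and 2081 against 2820 and 3115 (0.55 ± 0.14, adjusted p = 0.101 in limma and 0.0389 in limma-trend), although 1 of its 2 probe sets had the other sign. *Tet1* was at 2239 and 2318 against 3111 and 2602, also higher without overlap. *Tet3* went the other way, at 50.7 on both V6.5 arrays against 21.1 and 25.8. The de novo methyltransferases *Dnmt3a* and *Dnmt3b* overlapped between the lines. At an unadjusted p under 0.05, 4 were higher and 2 lower, and the median was 0.29, or 0.32 without V6.5 replicate 2. With the *Gapdh* ratio as a covariate 0 were higher and 1 lower at that threshold, and with the *Actb* ratio 1 was higher and 1 lower, at medians of 0.25 and 0.22.

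More genes of naive pluripotency were higher than lower in Oct4-Gfp iPGCs, and more genes of the primed epiblast were lower than higher. *Tbx3*, a T-box factor of the naive state, was at 689 and 889 against 1205 and 1495. This was 1.70-fold higher (0.77 ± 0.17, adjusted p = 0.0828 in limma and 0.0241 in limma-trend), with 3 of 4 probe sets of that sign. *Klf4*, a factor kept on by LIF signalling, was at 1671 and 1697 against 2611 and 3518. *Socs3*, a feedback inhibitor induced by LIF, was at 119 and 189 against 250 and 269. *Nr0b1* (Dax1) was at 273 and 556 against 608 and 1014, and *Tfcp2l1* at 1738 and 1454 against 2378 and 2049. All of these were higher without overlap. Of 21 measured naive genes 8 were higher and 0 lower at an unadjusted p under 0.05, 13 were higher and 3 lower without overlap, and the median was 0.23. With the *Gapdh* ratio as a covariate 1 was higher at that threshold (median 0.16), with the *Actb* ratio 3 were (median 0.09), and without V6.5 replicate 1 only 2 were (median 0.27). *Klf5* and *Pecam1* were among the 3 lower ones.

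The core network differed less. *Nanog* was at 6491 and 6208 against 6839 and 6564, *Sox2* at 5587 and 5768 against 5928 and 7296, and *Zfp42* (Rex1) at 5157 and 5986 against 5731 and 6629. *Nanog* and *Sox2* were higher without overlap by 0.08 ± 0.30 and 0.21 ± 0.41, well within their errors. *Trim71*, an RNA-binding protein of the *let-7* pathway, was at 3931 and 3658 against 2740 and 2060, the single member called by limma-trend (-0.67 ± 0.19, adjusted p = 0.117 in limma and 0.0326 in limma-trend), with 1 of 2 probe sets of that sign. The median of the 15 members was 0.13, and -0.17 with either control ratio as a covariate.

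*Fgf5*, the classic marker of the primed epiblast, was at 1511 and 407 on the V6.5 arrays and at 115 and 88.3 on the Oct4-Gfp arrays. It was lower without overlap, by 6.94-fold, but the V6.5 arrays themselves lay far apart (-2.79 ± 0.71, adjusted p = 0.0991 in limma and 0.0325 in limma-trend). *Pou3f1* (Oct6), a POU factor of the epiblast, showed the same layout at 610 and 144 against 65.3 and 80.8. For both genes V6.5 replicate 1 was the high array. *Pim2*, a kinase gene of the X chromosome, was at 893 and 464 against 203 and 231 (-1.51 ± 0.28, adjusted p = 0.0698, limma). *Otx2*, which drives the exit from the naive state, was at 919 and 878 against 522 and 600, and *Zic2* at 684 and 589 against 391 and 457. Of 12 measured members 0 were higher and 5 lower at an unadjusted p under 0.05, and 1 was higher and 8 lower without overlap. The median was -0.62, and -0.41 without V6.5 replicate 1 or -0.69 without V6.5 replicate 2. *Dnmt3b* and *Lefty2* overlapped.

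The most uniform list was antigen presentation, in which all 10 measured members were lower without overlap. The class I heavy chains, encoded in the H2 locus of chromosome 17, pair with *B2m* to show peptides on the cell surface. The peptides are cut by immunoproteasome subunits such as *Psmb8*, *Psmb9* and *Psmb10* and carried by *Tap1* with the help of *Tapbp*. *H2-K1* was at 1152 and 987 in V6.5 iPGCs and at 507 and 534 in Oct4-Gfp iPGCs. The pairs were tight and far apart, a 2.02-fold lower level with a 95% interval from -1.40 to -0.63 (-1.01 ± 0.17, adjusted p = 0.0695 in limma and 0.0128 in limma-trend). *H2-D1* was at 450 and 385 against 194 and 169 (-1.14 ± 0.21, adjusted p = 0.0698 in limma and 0.0237 in limma-trend). All 3 probe sets of each gene were lower, but class I genes are near-identical copies, so their signals can come in part from each other.

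The stretch of 220 bases before the start of *H2-K1* (chr17:34000348-34000567, minus strand), *H2-D1* (chr17:35262874-35263093, plus strand) and *B2m* (chr2:122147467-122147686, plus strand) is given here from RefSeq on GRCm38.p6, 5' to 3', because these are the genes whose products meet in the class I complex and lay lower together. Capitals mark every match, on either strand, to GGGGATTCC (the letters of the kappa B element described in class I promoters), AAGTGAAA (a core of interferon response elements, read here as TTTCACTT on the opposite strand) or GAAANNGAA (a looser form of such elements).
H2-K1: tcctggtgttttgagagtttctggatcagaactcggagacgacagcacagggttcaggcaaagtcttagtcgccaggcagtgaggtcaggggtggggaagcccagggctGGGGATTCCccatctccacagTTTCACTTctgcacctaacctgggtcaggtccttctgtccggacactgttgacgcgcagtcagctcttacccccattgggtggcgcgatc
H2-D1: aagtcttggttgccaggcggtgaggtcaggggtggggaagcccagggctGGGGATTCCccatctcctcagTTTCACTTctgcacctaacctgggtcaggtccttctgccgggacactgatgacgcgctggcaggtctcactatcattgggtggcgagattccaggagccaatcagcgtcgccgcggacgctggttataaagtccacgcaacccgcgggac
B2m: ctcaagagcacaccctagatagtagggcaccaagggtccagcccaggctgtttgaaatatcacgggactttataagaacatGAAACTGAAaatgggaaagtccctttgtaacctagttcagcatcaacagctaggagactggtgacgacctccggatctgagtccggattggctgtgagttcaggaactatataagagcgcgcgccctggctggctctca

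In these windows *H2-K1* and *H2-D1* each held 1 match to GGGGATTCC and 1 to AAGTGAAA, and *B2m* held 1 match to GAAANNGAA. Over the 250 bases before the start, 0.218% of 27025 mouse promoters held the first, 1.44% the second and 7.16% the third. A match describes the letters of the window and no more.

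*B2m* was at 1639 and 1225 against 946 and 1006, which was lower without overlap (-0.53 ± 0.19, adjusted p = 0.175, limma). *Psmb10* was at 1209 and 1616 against 595 and 536, a 2.44-fold lower level (-1.28 ± 0.28, adjusted p = 0.0843 in limma and 0.0223 in limma-trend). *Tap1* was at 154 and 207 against 90.4 and 101, and *Tapbp* at 1584 and 1966 against 1377 and 817. *Psmb8* was at 288 and 121 against 50.1 and 87.8, with V6.5 replicate 1 the high array, and *Psmb9* at 573 and 316 against 288 and 239. The smallest gaps were those of *H2-Q10* (68.1 and 115 against 54.5 and 54.8) and *H2-Bl* (551 and 750 against 506 and 505). At an unadjusted p under 0.05, 6 of the 10 were lower and 0 higher, and limma-trend called 3. The median was -0.77, and -0.91 without V6.5 replicate 2, and it stayed between -1.39 and -0.61 in all 20 settings run.

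The ESC and somatic arrays place these levels. *H2-K1* was at 888 and 931 in ESCs, at 1069 and 975 in V6.5 somatic cells, and at 1321 and 1742 in Oct4-Gfp somatic cells. *H2-D1* was at 338 and 365 in ESCs, at 436 and 400 in V6.5 somatic cells, and at 443 and 689 in Oct4-Gfp somatic cells. The Oct4-Gfp iPGCs were thus the lowest of the 5 groups for both genes, and the somatic cells of that line had the highest mean. This holds for the probe sets used. At another *H2-K1* probe set the iPGC arrays were at 165 and 112 against 30.3 and 46.8, the somatic arrays at 35.6 and 33.0 against 163 and 269, and ESCs at 246 and 236, so that V6.5 somatic cells had the lowest mean and ESCs the highest. The somatic line difference of the list had a median of 0.49, of the other sign. For *H2-K1* the difference between the cell types in the line contrast was -1.58 and did not pass (adjusted p = 0.184, limma). At the other probe set it was -3.72 (adjusted p = 0.0534, limma), and there the somatic line difference of 2.20 was among those that passed (adjusted p = 0.0468, limma). *Psmb10* had another layout, with ESCs at 3047 and 3530 above all other arrays.

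**Figure D3:**
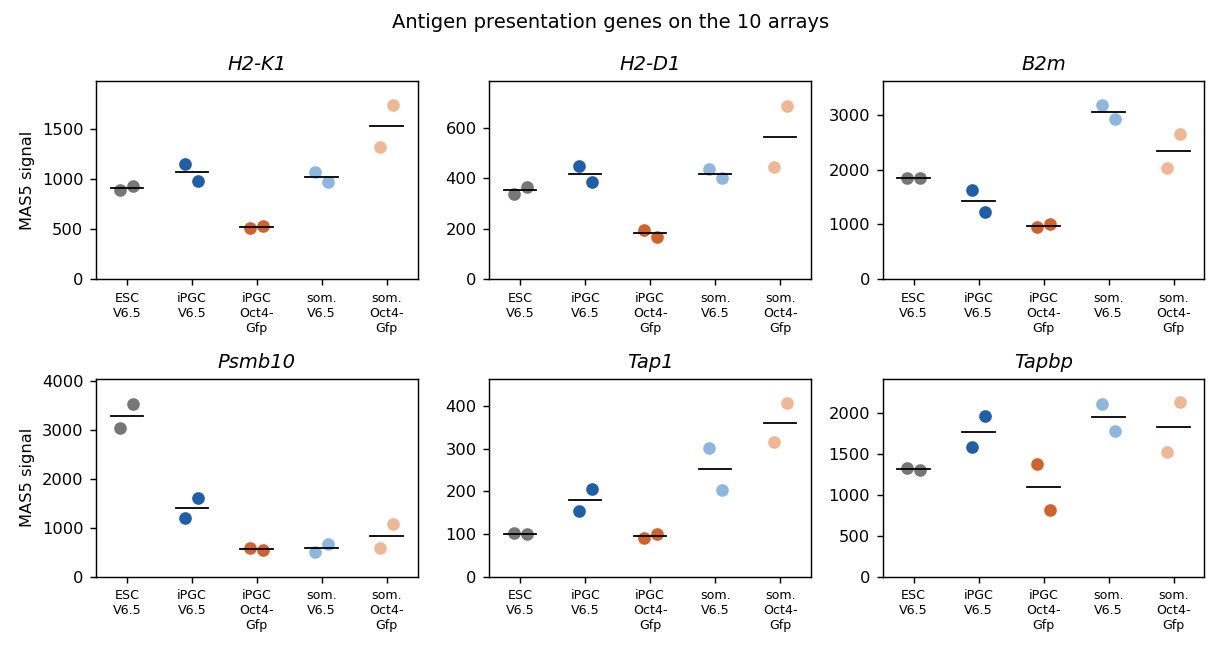
MAS5 signals (linear vertical axis from 0) of 6 antigen presentation genes on the 10 arrays by group, with bars at the group means. The Oct4-Gfp iPGC points lie below both V6.5 iPGC points in each panel, whereas the Oct4-Gfp somatic points for *H2-K1*, at 1321 and 1742, are the highest of all.

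Among interferon-induced genes outside antigen presentation, 1 member stood out in tight pairs. *Bst2* (tetherin), which holds budding viruses at the cell surface, was at 1976 and 2136 in V6.5 iPGCs and at 821 and 819 in Oct4-Gfp iPGCs. This was a 2.48-fold lower level in tight pairs (-1.31 ± 0.18, adjusted p = 0.0695 in limma and 0.00855 in limma-trend). The ESCs were at 1894 and 2042, near the V6.5 iPGCs. Of 15 measured members 9 were lower and 0 higher without overlap, against 29.0% of all genes lower. At an unadjusted p under 0.05, 2 were lower and 0 higher, a share close to the 12.8% of all genes. *Irf9*, a subunit of the factor that interferon activates, overlapped at 279 and 267 against 273 and 274, as did *Oas1a*, *Oasl2* and *Ifi27*. *Gbp2* was lower on both arrays but rested on V6.5 replicate 1, at 224 and 57.4 against 38.8 and 26.9. The median was -0.39, and -0.36 without V6.5 replicate 2.

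Imprinted genes, which are read from a single parental allele marked by DNA methylation, split into a lower group and a larger group near the median. *Igf2*, a fetal growth factor, was at 945 and 964 against 354 and 448. This was 2.35-fold lower (-1.23 ± 0.16, adjusted p = 0.0695 in limma and 0.00741 in limma-trend). The other *Igf2* probe set overlapped, at 668 and 716 against 347 and 713 (-0.46 ± 0.30). *Phlda2*, a growth restrainer of the same region of chromosome 7, was at 3260 and 3158 against 1375 and 1600 (-1.11 ± 0.16, adjusted p = 0.0695 in limma and 0.00741 in limma-trend). For *Phlda2* the ESC arrays, at 3336 and 3157, lay with the V6.5 iPGCs, and for *Igf2*, at 96.8 and 110, they lay below both lines. *Nnat* was at 201 and 252 against 66.3 and 88.2, *Snrpn* at 117 and 137 against 75.5 and 80.1, and *Cdkn1c*, a cell cycle inhibitor, at 542 and 413 against 320 and 333. *Usp29* and *Dlk1* were lower too, at 241 and 182 against 69.0 and 76.0 and at 115 and 123 against 25.2 and 49.6, but for each 1 of 2 probe sets had the other sign.

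Of 25 measured imprinted genes 7 were lower and 0 higher at an unadjusted p under 0.05, 10 were lower and 2 higher without overlap, and limma-trend called 5 lower. The 2 higher ones were *Ndn* (1627 and 1478 against 2083 and 1859) and *Meg3* (1871 and 1830 against 2179 and 2606). *Peg3*, *Gnas*, *Peg10* and *Grb10* overlapped. The median of the list was -0.20, and -0.15 without V6.5 replicate 2. In somatic cells the line difference was -0.14 for *Igf2* and -0.12 for *Phlda2*, and -1.52 for *Dlk1*.

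Somatic lineage genes would mark other cells in a gate. Those described first are single members, not a shift of their lists. *Hand1*, a factor of heart and trophoblast, was at 280 and 309 against 71.4 and 93.3. It was 3.20-fold lower without overlap (-1.68 ± 0.26, adjusted p = 0.0695 in limma and 0.0111 in limma-trend), whereas the somatic arrays held between 3913 and 5716. The other *Hand1* probe set was lower by less, at 202 and 157 against 108 and 123 (-0.57 ± 0.15). *Mixl1*, a homeobox factor of the primitive streak, was at 258 and 241 against 128 and 98.6, *Cfc1* (Cryptic), a Nodal co-receptor, at 286 and 300 against 140 and 136, and *Lhx1* at 39.1 and 36.4 against 2.55 and 13.8, below background in Oct4-Gfp iPGCs and thus at least 1.64-fold lower. *Nkx1-2*, a factor of the caudal epiblast, was higher at 345 and 419 against 179 and 175 in V6.5. Of 22 measured streak and mesoderm genes 4 were lower and 0 higher at an unadjusted p under 0.05, not far from the 12.8% of all genes. Their median was -0.27, and 0.015 after quantile normalization. The medians of the heart (-0.16), blood and endothelium (-0.21) and neural ectoderm (-0.19) lists turned too, to 0.08, 0.07 and 0.0044. At an unadjusted p under 0.05, 1 heart gene was higher and 3 were lower, 1 neural gene was higher and 1 lower, and 1 blood gene was lower.

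Of 10 measured trophoblast genes, *Hand1* among them, 1 was higher and 3 were lower at an unadjusted p under 0.05, with a median of -0.52. The summed signals of several such lists were lower without overlap. The sum was 2789 and 2540 on the V6.5 arrays against 1781 and 1783 on the Oct4-Gfp arrays over 16 blood and endothelium genes, and 6337 and 9811 against 4731 and 5530 over 14 endoderm genes. It was 2172 and 2200 against 1597 and 2111 over 24 heart genes, 1123 and 1204 against 958 and 1055 over 9 neural genes, and 6681 and 4492 against 3402 and 4372 over the trophoblast genes. These 5 sums were lower without overlap, those of the heart and trophoblast lists by a small margin. *Hand1*, at 280 and 309 against 71.4 and 93.3, counts in both of these lists, and without it both sums overlap. The sums overlapped for streak and mesoderm (5287 and 4150 against 4114 and 4632) and for 18 fibroblast and feeder genes (8154 and 9235 against 8988 and 9420). The sum of 20 Hox genes was higher without overlap, at 698 and 903 against 934 and 1434. Lower sums were not confined to lineage genes. That of PGC specification and migration was lower without overlap too (71648 and 75724 against 68100 and 67791). That of the germline list was higher (20384 and 17476 against 24387 and 23120). Of these 18 fibroblast and feeder genes 3 were higher and 7 lower without overlap, against 25.8% and 29.0% of all genes. At an unadjusted p under 0.05, 1 was higher and 3 were lower. *Ccl2* had the lowest difference, at 36.8 and 55.0 against 7.82 and 21.8, and *Vim* the highest, at 1512 and 1397 against 1914 and 2892. Of the defining fibroblast genes, *Col1a1* was at 347 and 461 against 245 and 398 and *Col3a1* between 17.7 and 25.4, both with overlap, while *Postn* and *Lox* were below background on all 4 arrays. The part of such cells in the other differences was not tested, and in sorted bulk samples fewer cells of a type and less RNA per cell cannot be told apart. Of 20 measured Hox genes 6 were higher and 4 lower without overlap, against 25.8% and 29.0% of all genes. At an unadjusted p under 0.05, 1 was higher, and the median of 0.05 turned to -0.10 without V6.5 replicate 1. *Hoxd9* was at 181 and 138 against 288 and 547 (1.25 ± 0.33, adjusted p = 0.103 in limma and 0.0389 in limma-trend), *Hoxa9* at 38.2 and 57.5 against 99.9 and 145, and *Hoxa10* at 30.8 and 53.3 against 77.5 and 102. The lower ones were *Hoxb3*, *Hoxb4*, *Hoxc4* and *Hoxc5*. Of these, *Hoxc5* was below background on all 4 arrays, and 1 of 2 *Hoxb3* probe sets had the other sign.

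Signalling genes differed at single members. *Fst* (follistatin), which binds and blocks activin, was at 276 and 234 against 55.2 and 30.0, a 4.81-fold lower level (-2.26 ± 0.32, adjusted p = 0.0695 in limma and 0.0111 in limma-trend). *Lefty1*, an inhibitor of Nodal, was at 447 and 631 against 126 and 197, far under the 3408 and 4146 of ESCs. *Acvr2a*, an activin receptor, was at 1074 and 1306 against 1857 and 1674, with 1 of 2 probe sets of that sign. The 16 genes of the Nodal and activin list had a median of -0.16, with 2 higher and 4 lower at an unadjusted p under 0.05. In the BMP list, the target *Id1* was at 1333 and 1224 against 675 and 758 (-0.82 ± 0.15, adjusted p = 0.0698, limma) and *Id3* at 2198 and 2589 against 1748 and 1781. The inhibitor *Smad7* was higher, at 2208 and 3263 against 1615 and 1583 in V6.5, and so was the receptor *Bmpr2*, at 1161 and 1096 against 829 and 669 in V6.5, each with 1 of 2 probe sets of that sign. Of 21 BMP genes 3 were higher and 5 lower at an unadjusted p under 0.05.

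Stress and dissociation genes, which can rise while cells are prised apart for sorting, were lower in Oct4-Gfp iPGCs at several members. *Jun* was at 527 and 447 against 270 and 223 (-0.94 ± 0.20, adjusted p = 0.0791, limma), *Fos* at 368 and 420 against 190 and 302, and *Zfp36*, which destabilises inflammatory mRNAs, at 1465 and 1093 against 874 and 520. The other *Jun* probe set overlapped, at 303 and 185 against 177 and 212 (-0.27 ± 0.25). *Egr1* and *Dusp1* overlapped too. Of 19 such genes 5 were lower and 0 higher at an unadjusted p under 0.05, and the median was -0.32. The actin-binding smooth muscle gene *Tagln* was at 190 and 183 against 56.3 and 45.9 (-1.61 ± 0.25, adjusted p = 0.0695, limma). It belongs to a list of 24 stress fibre and actin genes, of which 2 were higher and 3 lower at an unadjusted p under 0.05 and 2 were called in each direction by limma-trend, *Vcl* and *Lmna* being the higher ones. The other *Vcl* probe set was lower without overlap, at 908 and 822 against 591 and 662. For *Lmna*, 2 of 3 probe sets were higher. The median of the list was -0.15, and 0.016 with the *Gapdh* ratio as a covariate. Cell cycle lists lay near all genes, with a median of 0.06 over 18 S phase genes and 0.11 over 19 G2 and M phase genes, the latter turning to -0.11 with the *Gapdh* ratio as a covariate, -0.10 with the *Actb* ratio and -0.0074 without V6.5 replicate 2. Y-linked *Eif2s3y* was at 2718 and 2245 against 3723 and 3433, so both lines carried Y-linked RNA.

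**Figure D4:**
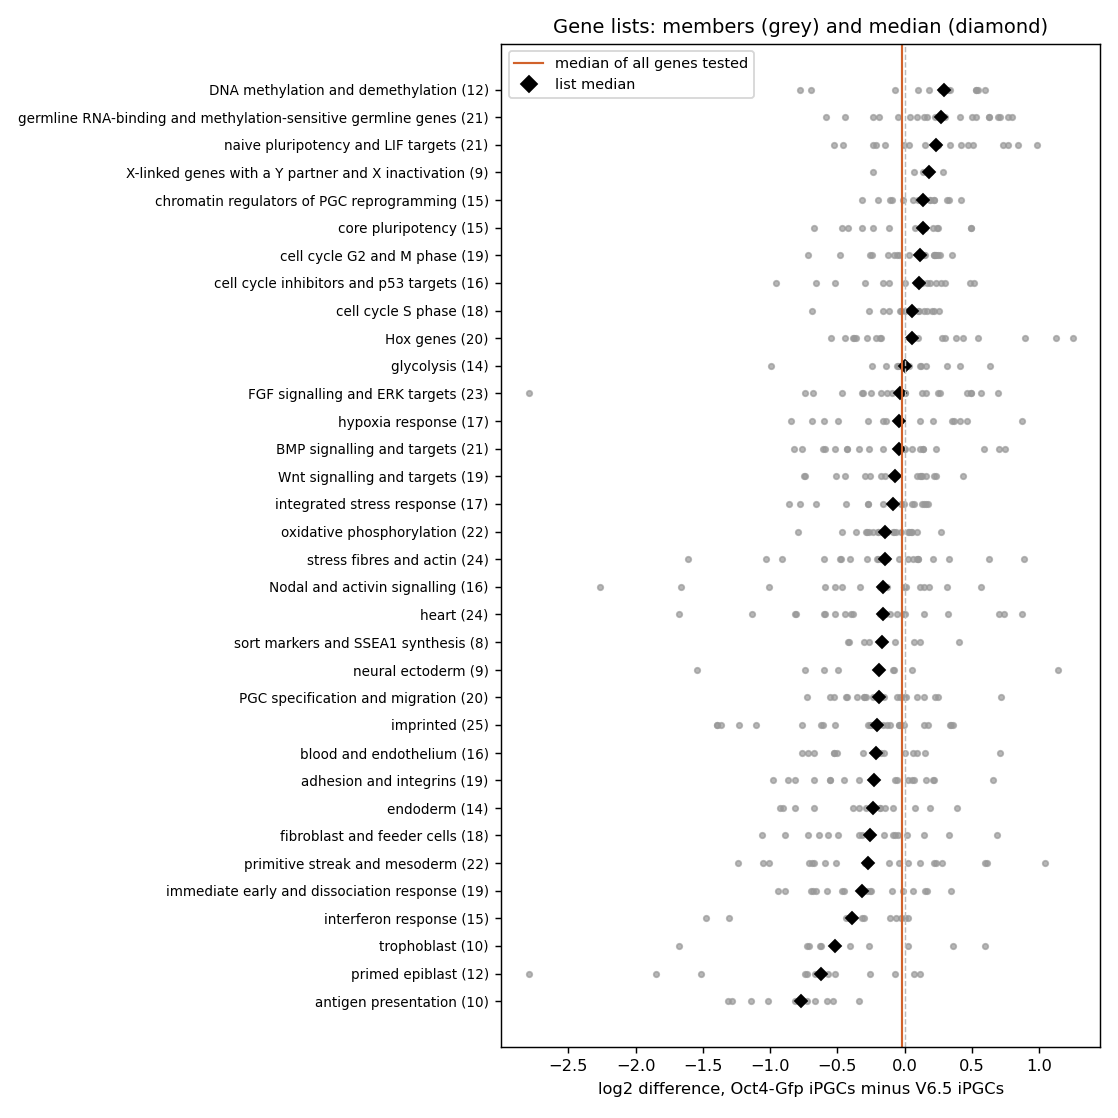
Log2 difference (Oct4-Gfp minus V6.5 iPGCs, horizontal axis) of each measured member (grey) and the median (diamond) of the gene lists with at least 8 measured genes, with the number measured in brackets and the median of all genes as a line at -0.02. Antigen presentation at -0.77 and primed epiblast at -0.62 lie at the lower end, and DNA methylation at 0.29 and germline genes at 0.27 at the upper end.

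The largest gaps without overlap at an unadjusted p under 0.01 are named next. They were chosen after their values were seen, 12 in each direction, from 207 higher and 657 lower genes. *Fam170b*, a gene of the testis, was at 424 and 628 against 84.6 and 34.1 (-2.93 ± 0.51, adjusted p = 0.0697, limma), a 7.62-fold lower level. *Tmem256*, a small membrane protein gene, was at 2597 and 3437 against 867 and 818 (-1.81 ± 0.21, adjusted p = 0.0695 in limma and 0.00244 in limma-trend). The ESC arrays, at 5002 and 5941, were higher still. *Efna5*, an ephrin ligand of guidance receptors, was at 114 and 73.6 against 16.9 and 5.15, below background in Oct4-Gfp iPGCs and thus at least 3.34-fold lower. *Flnc* (filamin C), which crosslinks actin, was at 415 and 264 against 89.7 and 51.5, and *Spon1*, a matrix protein gene, at 228 and 215 against 72.1 and 37.6. The other probe sets of *Efna5*, *Flnc* and *Spon1* overlapped between the lines, with differences of -0.63, -0.62 and -0.16. The remaining lower genes were *AY036118*, *Vstm2l*, *Sct*, *Rgl3*, *Pkdcc* and the *Fgf5* and *Fst* given above.

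In the other direction, *Dner*, a transmembrane ligand of Notch, was at 476 and 519 in V6.5 iPGCs and at 1118 and 1800 in Oct4-Gfp iPGCs. Both its probe sets were higher, the used one by 2.80-fold (1.49 ± 0.34, adjusted p = 0.0873 in limma and 0.0344 in limma-trend). *Ddah1*, which clears an inhibitor of nitric oxide synthesis, was at 682 and 488 against 1587 and 1331, with all 4 probe sets higher (1.31 ± 0.19, adjusted p = 0.0695 in limma and 0.00855 in limma-trend). Its ESC and somatic arrays, between 1221 and 1789, lay with the Oct4-Gfp iPGCs. *St8sia1*, the sialyltransferase that makes the ganglioside GD3, was at 124 and 125 against 294 and 448, with 3 of 3 probe sets higher. *Camk2a*, a calcium-dependent kinase, was below background in V6.5 iPGCs at 15.6 and 12.2, against 48.0 and 63.1, and so at least 2.10-fold higher in Oct4-Gfp iPGCs, although its other probe set had the other sign. *Nlrp4f*, of a family known from oocytes, was at 173 and 123 against 346 and 350. *Sowahb*, *Enox1*, *En2*, *Trpm1*, *Afap1*, *Itga1* and the *Hoxd9* given above were the others. The other *Afap1* probe set was lower without overlap, at -0.61.

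**Figure D5:**
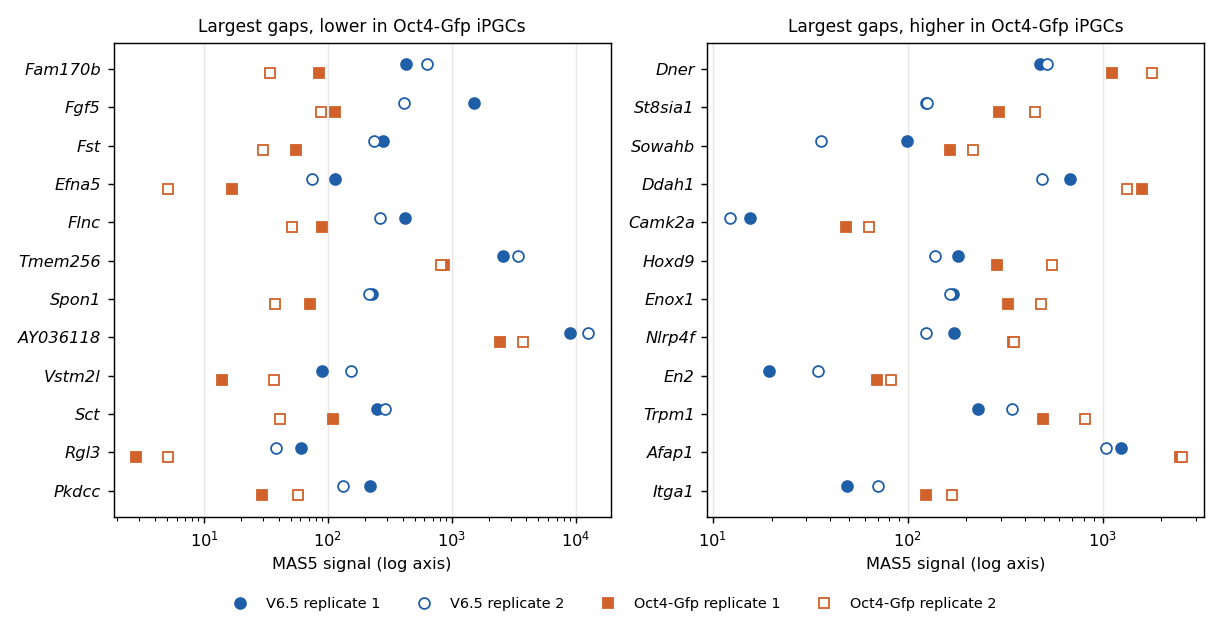
MAS5 signals (horizontal log axis) on the 4 iPGC arrays of the 12 genes with the largest gap in each direction, V6.5 as circles and Oct4-Gfp as squares. The pairs do not overlap for any gene, which is how they were chosen, and the Oct4-Gfp squares of *Efna5* and *Rgl3* and the V6.5 circles of *Camk2a* lie below background.

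The control ratios bore on some of these genes more than on others. With the *Gapdh* ratio as a covariate the difference was -1.35 for *H2-K1*, -1.51 for *H2-D1*, -1.82 for *Bst2* and -1.34 for *Igf2*, each at least as large as without it. The same held for *Ddah1* at 1.86 and *Rhox5* at 1.01. The difference shrank to -0.96 for *Fam170b*, -0.69 for *Tagln*, -0.38 for *Jun*, 0.67 for *Dner* and 0.34 for *Tbx3*. The difference turned sign for 24 of 170 named genes. Besides *Rhox9* and *Rhox6*, these included *Ddx4* (-0.20), *Prdm14* (-0.18), *Id4* (0.11), *Nanog* (-0.56), *Prdm1* (0.55), *Itgb3* (0.90) and *Trim71* (0.02). The covariate differs between the lines by itself, so this fit rests on the spread within pairs and on the other 6 arrays, and the smallest adjusted p in it was 0.811 (limma).

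The same line contrast was made in somatic cells, on 4 arrays that hold no iPGCs. There the sort marker differed too, in that cells lacking SSEA1 or the reporter were taken. In somatic cells 22 probe sets passed (0.0834%), 7 higher and 15 lower in the Oct4-Gfp line. The sign was the same in both cell types for 62.5% of genes, and for 68.6% of the genes without overlap between the iPGC lines (Pearson r 0.233 across all genes, which share their probe sets and arrays and are not independent). *Dlk1* was lower in the Oct4-Gfp line in both cell types, at 4629 and 4530 against 1641 and 1542 in somatic cells. *Bst2* differed by -1.31 in iPGCs and by 0.05 in somatic cells.

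The difference of the line contrast between cell types passed at 4 probe sets (0.0152%), and in 3 of them the somatic difference was the larger. The count fell to 0 after quantile normalization, with no filter, with the background filter, with only 8 arrays, with array weights, without moderation, with the replicate block in either pairing, with the *Gapdh* ratio as a covariate, and without any 1 of the 4 iPGC arrays, V6.5 somatic replicate 1 or Oct4-Gfp somatic replicate 2. *Eomes*, a T-box factor of mesoderm and trophoblast, was at 419 and 349 in V6.5 iPGCs and at 402 and 374 in Oct4-Gfp iPGCs, with overlap. In somatic cells it was at 103 and 140 against 815 and 904. The 2 *Eomes* probe sets gave differences between the contrasts of -2.67 ± 0.25 and -2.93 ± 0.28 (adjusted p = 0.0391 each, limma). A probe set of *Hbb-bh1*, an embryonic beta globin, lay between 1.02 and 5.72 on the 4 iPGC arrays, below background. In somatic cells it was at 7176 and 6100 against 1157 and 1078.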

How the data were processed

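Total RNA of sorted cells was amplified and hybridised to Affymetrix Mouse Genome arrays, 2 per group in 5 groups. The authors deposited 1 table of signal intensity for 45101 probe sets, and the submitters' processing notes name MAS5, without a version, whereas the methods name D-Chip. The deposited intensities ran from 0.0142 to 30783, and each array had a trimmed mean of 500.002 with 2% left out at each end, so no further scaling was applied. All columns were used.

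Of 45101 probe sets, 64 controls were left out, and 26368 above the array median on at least 2 of 10 arrays were tested. The annotation gave 1 symbol for 34958 probe sets, several for 932 and none for 9211, and 34754 of the first matched the reference table. A gene stands for its probe set of highest mean (12207 genes, 6019 with over 1 tested probe set). Log2(signal + 14.8), the offset being the 25th percentile of the table, was fitted in limma 3.58.1 (R 4.3.3) with 1 mean per group over all 10 arrays, with 5 residual and 2.92 prior degrees of freedom. Benjamini-Hochberg adjustment, at 0.05, ran over all probe sets tested, and a gene carries the adjusted p of its probe set. The script was tested on simulated data. Background was the 95th percentile of 44 olfactory receptor probe sets per array. A level below it on both arrays of a line gives a bound, "at least N-fold", taken from log2 means with the background in place of the lower signals. Errors after ± are SE unless marked SD. The number of arrays limits the precision.

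Named genes were those the study names, up to 4 members of each of 36 lists with the smallest adjusted p, and those where the line contrast differed between cell types. Since no gene passed in iPGCs, the 12 largest gaps in each direction were added, and further list members are named as examples; both were chosen after their values were seen. The comparison and its lists were chosen with earlier results of these data known. Alternatives changed the offset, the filter, the scaling, the arrays in the fit, the variance model, the threshold, the replicate block and the control ratios, or left out 1 array. Figures were drawn with matplotlib 3.10.9.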

Additional observations from a re-analysis of the deposited data

Results flagged for a closer look

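At 4 probe sets the line contrast of iPGCs differed from that of somatic cells past the test of the difference itself (adjusted p = 0.0391 each, limma, 2 arrays per group). The 2 probe sets of *Eomes* differed by -2.93 and -2.67 on the log2 scale, iPGC minus somatic, from iPGC line differences of -0.60 and 0.02 and somatic line differences of 2.33 and 2.69. At the first of them the iPGC arrays were at 209 and 195 (V6.5) against 145 and 114 (Oct4-Gfp), and the somatic arrays at 54.4 and 78.0 against 426 and 351. A probe set of *Hbb-bh1* differed by 2.43, from -0.12 in iPGCs, where all 4 arrays were below background, and -2.55 in somatic cells, whereas the other probe set of the gene differed by 1.99 and did not pass (adjusted p = 0.336, limma). A probe set with no gene name here differed by -3.80, with 101 and 69.0 against 2.13 and 0.370 in iPGCs, Oct4-Gfp the lower, and 2.67 and 1.26 against 15.4 and 32.8 in somatic cells. All 4 calls were lost without either V6.5 iPGC array or either Oct4-Gfp iPGC array, where 0 probe sets passed.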

How the results depend on the processing

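The absence of calls between the iPGC lines held in every alternative run except limma-trend, which called 932 probe sets (44 list genes and 60 named genes), an unmoderated linear model (1 probe set), and the rule of 3-fold with unadjusted p under 0.01 (33). The count at an unadjusted p under 0.05 was 1518 with the *Gapdh* ratio and 1919 with the *Actb* ratio as a covariate. It ran from 3324 to 7048 when 1 iPGC array was left out, with 3324 without Oct4-Gfp replicate 2 and 3434 without V6.5 replicate 2. Of 170 named genes 141 kept their sign in 19 alternatives, and 24 turned with the *Gapdh* ratio, 11 with the *Actb* ratio, 5 after quantile normalization, 6 after median centring and 1 to 4 when 1 iPGC array was left out. The difference between cell types (4 probe sets) was called at 154 under the 3-fold rule, 10 with a floor in place of the offset and 11 in limma-trend, and at 0 with no filter, the background filter, quantile normalization, only 8 arrays, array weights, no moderation, the replicate block in either pairing or the *Gapdh* ratio. It ran from 0 to 3 when 1 array was left out. The somatic contrast (22) gave 71 under the 3-fold rule, 35 with 2 times the offset, 64 in limma-trend, 2 with no filter, 5 with the background filter, 5 with only 8 arrays, 0 with no moderation, 5 with the replicate block, 3 with the *Gapdh* ratio and 0 to 16 when 1 array was left out. The causes were not tested. The replicate number as a block gave 0 calls and 5080 probe sets at an unadjusted p under 0.05. The deviations of same-numbered arrays had an r of -0.29 between the iPGC lines, and of -0.29 to 0.26 over all pairs of groups. With 2 arrays per group this cannot show whether the numbers pair the samples. A crossed pairing, chosen after seeing the data, gave 0 calls and 5216 probe sets. With an array left out, the lone array of a group is assumed to vary like the other groups. Signals near background limit what the dim genes can show.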

Other observations

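By chromosome, the share of genes lower in Oct4-Gfp iPGCs at an unadjusted p under 0.05 was highest on chromosome 7 (20.0% of 955 genes), 8 (18.8%) and 17 (17.6%), against 12.8% of all genes, and lowest on the X chromosome (5.35% of 411). The share of higher genes was highest on chromosome 18 (13.0%), X (11.7%) and 16 (11.3%), against 7.21% of all genes. These shares are descriptions without a test.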
